A study of Mus musculus with 6 samples.

Results

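The Krüppel-like factor (KLF) genes examined here were Klf2, Klf3, Klf4, Klf5, Klf6, Klf7, Klf9, Klf10, Klf11 and Klf13. They were taken by symbol from the tables of all genes, which list 55401 genes, and all 10 of 10 were found and tested among 15155 genes. The assay was Click-iT capture of nascent RNA from iMEF, an immortalised mouse embryo fibroblast line, in 6 samples: 2 without dTAG, 2 named for 4 h of dTAG and 2 for 8 h. By the paper's account, the RNA label was given over windows that began before and ended after these times. The captured RNA was then poly-A selected. Below, 4 h and 8 h stand for these windows, so a value covers RNA made over a window and still present at its end. All groups shared the same genetic setting. The floxed endogenous Ash2l had been inactivated, and a lentiviral human ASH2L with an FKBP12F36V tag and HA epitopes (FKBP-HA2-ASH2L) took its place. Experiments were run on selected clones, mostly a single clone, so a group is a model of that clone. The dTAG-13 compound brings the tagged protein to an E3 ligase, which leads to its degradation. Separate cultures are not stated for the samples within a group, and every p-value here reflects only sample-to-sample spread that could be technical.

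KLF proteins are transcription factors with zinc fingers at the carboxy terminus that bind GC-rich and CACCC sequences in promoters and enhancers. Several are made from early response genes, turned on within a short time by serum, growth factors, flow or hormones, and their short-lived transcripts make them sensitive to the rate of new synthesis. ASH2L belongs to the core of the COMPASS/KMT2 methyltransferases, whose mark on histone H3, H3K4me3, is found at active promoters, most of which are rich in CpG. In fibroblasts, KLF genes are known for control of proliferation, quiescence and the response to TGF-β.

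Of the 10 genes, 8 had an entry among RefSeq promoters of the GRCm38.p6 build: Klf2, Klf3, Klf4, Klf6, Klf7, Klf9, Klf11 and Klf13. In the 250 bases before the start site these 8 held 13 to 32 CpG dinucleotides, with a median of 23.5, against a median of 6 over all 32851 promoters of the table. The GC box was searched as GGGCGG or CCGCCC, and the CACC box, the element of the KLF family, as CACCC or GGGTG, so that both strands were covered. The 2 motifs can overlap each other by shared letters. A GC box was found in 7 of 8, against 32.7% of all promoters, and a CACC box in 5 of 8, against 52% of all promoters. A match describes letters and not a bound site. The stretches before Klf9, the member with the highest level, and Klf4, which tied with Klf11 for the most CpG, are printed because the Klf9 stretch held a CACC box and no GC box and the Klf4 stretch held GC boxes and no CACC box. Klf9 held 1 CACC box and no GC box in 18 CpG, and Klf4 held 4 GC boxes and no CACC box in 32 CpG. Capitals mark the boxes. The Klf9 stretch is chr19:23140976-23141225 on the plus strand, and the Klf4 stretch is chr4:55532476-55532725 on the minus strand, both 5′ to 3′.
Klf9: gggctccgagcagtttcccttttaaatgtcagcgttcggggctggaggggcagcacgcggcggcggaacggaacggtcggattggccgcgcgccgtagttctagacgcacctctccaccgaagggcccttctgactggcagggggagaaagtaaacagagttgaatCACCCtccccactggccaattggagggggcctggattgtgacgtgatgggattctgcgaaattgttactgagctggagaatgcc
Klf4: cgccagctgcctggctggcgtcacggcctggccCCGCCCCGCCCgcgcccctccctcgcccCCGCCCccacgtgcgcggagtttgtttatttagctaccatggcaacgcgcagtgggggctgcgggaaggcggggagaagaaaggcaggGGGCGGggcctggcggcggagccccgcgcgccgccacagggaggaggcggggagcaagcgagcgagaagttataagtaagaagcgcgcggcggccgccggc

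The deposited tables give 1 mean per gene and comparison and no value per sample. The whole number of each library was therefore recovered from the means of both tables, as set out in the account of processing, and divided by a median-of-ratios factor over the 6 libraries. The result is called the normalised value below. It is a relative level, since any change that all genes share is divided out. The 2 libraries of a group are given as the first and the second, with no replicate number. Untreated libraries had recovered numbers that summed to 10113456 and 7169099, the 4 h libraries had sums of 17126987 and 11811514, and the 8 h libraries had sums of 24078035 and 16916226. In 4 of the 6 libraries they carried gaps that scaling before rounding leaves, so they are not read totals. Log2 values of genes with a mean of at least 100 correlated with r of 0.942 to 0.949 within groups and 0.944 to 0.949 between groups, which describes genes and not replicates.

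The fibroblast label was checked against marker genes. Col1a1 lay between 7993 and 9495 normalised units, Col1a2 between 6917 and 8286 and Pdgfrb between 2603 and 2970, and the deposited means of Vim were 90922 and 105625 in the 2 tables. Of the 4 endothelial markers, Pecam1 lay between 5855 and 7147 and Cdh5 between 2804 and 3263, so these cells carried endothelial transcripts in every group. Tek and Kdr were far lower, at 190 to 466 and 73.9 to 211. The summed endothelial level was 9846 to 10639 at 4 h and 9991 to 10481 at 8 h, against 9085 to 9670 in untreated cells. All 4 genes were measured and none was at 0, but nearly all of the sum came from Pecam1 and Cdh5. Kdr went the other way at 4 h, with 73.9 and 106 against 211 and 185 in untreated cells. Klf2 and Klf4 are known for roles in endothelium, and the part of these transcripts in their levels was not tested. The summed level of 3 measured blood markers was 106 to 135 at 4 h and 89.8 to 103 at 8 h against 213 to 268 in untreated cells. Of these, Ptprc went the other way at 8 h, with 46.3 and 35.8 against 0 and 34 in untreated cells. Adgre1 had 78.4 and 168 within the untreated pair. For the neural markers Tubb3 and Gfap it was 219 to 282 at 4 h and 192 to 195 at 8 h against 292 to 480, nearly all of it from Tubb3. The 4 epithelial markers summed to 1025 to 1220 at 4 h and 1046 to 1173 at 8 h against 1084 to 1223 in untreated cells. What part these low levels had in any result was not tested. Differences in the sums were not tested either. Of all genes tested, 32.1% did not overlap between groups at 4 h against untreated and 33.7% at 8 h. Fibroblast markers (6 measured) summed to 26646 to 27877 at 4 h and 25726 to 28083 at 8 h, against 25179 to 26743 untreated. The muscle genes Myod1 and Myog and the T cell gene Cd3e were listed at 0 in both tables.

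Levels between genes were compared per kilobase of exon, from the GENCODE M21 annotation of GRCm38, whose versions of all 10 gene IDs match the files. Which part of a transcript the reads came from differs between a total RNA and a 3′ library, and the sources used here name both kinds of kit, so the order per kilobase depends on that. In untreated cells Klf9 and Klf6 stood at the top, with 1872 ± 70.3 and 1772 ± 100.1 normalised units per kilobase (SD, n = 2 each), and their libraries overlapped. Klf2 followed with 820 ± 60, Klf13 with 549 ± 69.1, Klf7 with 366 ± 21.4 and Klf3 with 237 ± 4.15, each with libraries separate from those of its neighbours. Klf4 (182 ± 49.6), Klf10 (135 ± 17.8) and Klf5 (131 ± 41.8) overlapped one another, and Klf11 was lowest with 11.3 ± 9.88. Without division by length, untreated means were 9016 for Klf9, 7780 for Klf6, 4138 for Klf13, 2977 for Klf7 and 2663 for Klf3. Klf2 (1514), Klf5 (684), Klf10 (564) and Klf4 (554) followed, and Klf11 (48.9) was lowest again. Klf6 and Klf9 together made up 54.4% to 57.2% of the members' summed normalised value in any library, and the 10 members made up 96.4% to 97.5% of that of all measured KLF genes.

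The question was whether new synthesis of KLF transcripts changed within hours of ASH2L loss. No member passed the test, which does not show that levels were equal. In each of the 3 comparisons, 0 of 10 members passed an adjusted p of 0.05 (limma on log2 of the normalised value + 1, Benjamini-Hochberg over 15155 genes), where 0% of all genes passed. No member had an unadjusted p below 0.05, and of all genes 667 did at 4 h against untreated, 775 at 8 h against untreated and 675 at 8 h against 4 h. Voom weights and robust eBayes also called 0 members. With 2 against 2 libraries an exact two-sided permutation test cannot go below p = 0.333, so it was not used. What the data give is therefore a bound on each difference, tight for the abundant members and wide for Klf11.

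**Figure D1:**
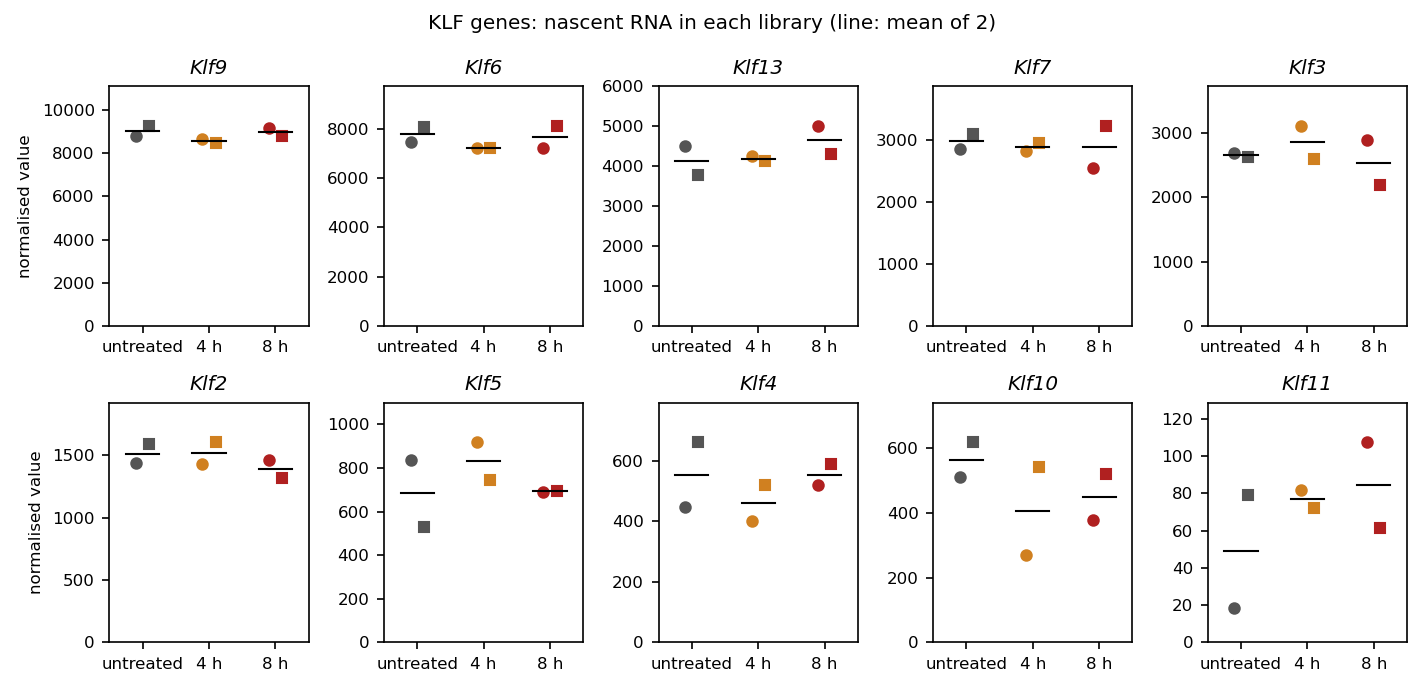
Normalised value (y axis, linear from 0, with its own scale in each panel) of the 10 KLF genes in untreated cells and after 4 h and 8 h of dTAG. Circles and squares are the first and second library of a group and the line is the mean of 2. The points of Klf9 and Klf6 lie within 1.09-fold and 1.13-fold over all 6 libraries, and those of Klf11 spread 5.76-fold.

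Gene positions are from GENCODE M21 on GRCm38. Among the members that mainly activate transcription, Klf2 (ENSMUSG00000055148.7, chr8:72319033-72321656, plus strand) is a flow-responsive factor linked to quiescence. Its values were 1436 and 1593 in untreated cells, 1433 and 1604 at 4 h and 1467 and 1318 at 8 h. Ranges overlapped between the groups. Its log2 difference was 0.0039 at 4 h against untreated (95% interval −0.35 to 0.36) and −0.12 at 8 h against untreated (−0.47 to 0.23).

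Klf4 (ENSMUSG00000003032.8, chr4:55527143-55532466, minus strand), one of the reprogramming factors and an inhibitor of the cell cycle in many cells, had 447 and 660 in untreated cells, 401 and 521 at 4 h and 520 and 588 at 8 h. Its lowest library was at 4 h and the highest was untreated, and the groups overlapped. Its log2 difference was −0.25 at 4 h against untreated (95% interval −0.89 to 0.39) and 0.026 at 8 h against untreated (−0.61 to 0.66). Without 1 library of the comparison at a time, and relative to the median of all genes, it ranged from −0.52 to 0.05 at 4 h.

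Klf5 (ENSMUSG00000005148.8, chr14:99298691-99315036, plus strand), which favours proliferation in epithelium and smooth muscle, had 838 and 530 in untreated cells, 917 and 744 at 4 h and 690 and 695 at 8 h. Both 8 h libraries lay below both 4 h libraries and between the untreated ones. Differences on the log2 scale were 0.31 at 4 h against untreated (95% interval −0.26 to 0.88), 0.054 at 8 h against untreated (−0.52 to 0.63) and −0.25 at 8 h against 4 h (−0.83 to 0.32). Left out one at a time, the libraries gave −0.0039 to 0.65 at 4 h against untreated, relative to the median of all genes.

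Klf6 (ENSMUSG00000000078.7, chr13:5861482-5870394, plus strand), an injury-induced factor that acts on TGF-β pathway genes, had 7470 and 8091 in untreated cells, 7206 and 7245 at 4 h and 7216 and 8119 at 8 h. Both 4 h libraries were below both untreated ones, by a margin smaller than the gap within the untreated pair. The log2 difference was −0.11 ± 0.089 (SE) at 4 h against untreated, with a 95% interval of −0.30 to 0.09 and an adjusted p of 0.961. At 8 h against untreated it was −0.022 (−0.22 to 0.17).

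Klf7 (ENSMUSG00000025959.13, chr1:64029447-64122282, minus strand), known for axon growth and for restraint of fat cell formation, had 2855 and 3100 in untreated cells, 2817 and 2950 at 4 h and 2547 and 3224 at 8 h. Within the 8 h pair were both the lowest and the highest value. On the log2 scale it differed by −0.046 at 4 h against untreated (95% interval −0.35 to 0.25) and −0.054 at 8 h against untreated (−0.35 to 0.25). In GENCODE M21, 3196 of its 8131 exon bases are shared with the opposite-strand lincRNA Gm26649. That symbol is absent from the authors' gene list, whose annotation may differ from M21. The part of that gene in these values is not known.

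Klf3 (ENSMUSG00000029178.14, chr5:64803388-64832901, plus strand) is a repressor that recruits the CtBP corepressors. It had 2696 and 2630 in untreated cells, 3113 and 2606 at 4 h and 2888 and 2198 at 8 h. Both untreated libraries lay inside the range of the treated ones. Its log2 difference was 0.097 at 4 h against untreated (95% interval −0.24 to 0.43) and −0.08 at 8 h against untreated (−0.42 to 0.26). Klf3 shares 404 exon bases with the antisense gene Gm20033, whose normalised value was at most 102, and no source used here says if reads were counted by strand.

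Klf9, Klf10, Klf11 and Klf13 recruit the Sin3 corepressor and mostly repress. Klf9 (ENSMUSG00000033863.2, chr19:23141226-23168134, plus strand), a target of the glucocorticoid and thyroid hormone receptors, had 8777 and 9255 in untreated cells, 8667 and 8472 at 4 h and 9173 and 8769 at 8 h. Both 4 h libraries were below both untreated libraries and below both 8 h libraries. The log2 difference was −0.073 ± 0.076 (SE) at 4 h against untreated (95% interval −0.24 to 0.09, adjusted p = 0.961) and −0.0071 at 8 h against untreated (−0.17 to 0.16). As a ratio, the 4 h interval runs from 0.847 to 1.07 and the 8 h interval from 0.886 to 1.12.

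Klf10 (ENSMUSG00000037465.10, chr15:38291463-38300706, minus strand), an early response gene of TGF-β, had 512 and 617 in untreated cells, 270 and 543 at 4 h and 377 and 519 at 8 h. One 4 h library stood below all others, while the other 4 h library lay within the untreated pair. The log2 difference at 4 h against untreated was −0.55 ± 0.36 (SE), with a 95% interval of −1.34 to 0.24, an unadjusted p of 0.152 and an adjusted p of 0.961 (limma). This was the lowest unadjusted p of any member in the 3 comparisons, and 15.5% of all tested genes had a lower one in that comparison. Without 1 library at a time this difference, relative to the median of all genes, ranged from −1.07 to −0.068, the weakest being without the first 4 h library. At 8 h against untreated the difference was −0.34 (−1.14 to 0.45).

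Klf11 (ENSMUSG00000020653.12, chr12:24651274-24662789, plus strand), a close relative of Klf10, was the least abundant member, with 18.6 and 79.2 in untreated cells, 81.8 and 72 at 4 h and 107 and 61.2 at 8 h. Its first untreated library rested on a recovered number of 14 and the other on 42. Only that first untreated library stood apart, and the second lay within the treated range. The log2 difference was 0.97 at 4 h against untreated (95% interval −1.02 to 2.96) and 1.05 at 8 h against untreated (−0.94 to 3.04). Without 1 library at a time it ranged from −0.038 to 2.01 at 4 h and from 0.039 to 2.08 at 8 h, and the lowest values came without the first untreated library.

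Klf13 (ENSMUSG00000052040.10, chr7:63886351-63938915, minus strand), known from T cells as an activator of a chemokine gene, had 4506 and 3770 in untreated cells, 4259 and 4121 at 4 h and 5005 and 4300 at 8 h. Both 8 h libraries were above both 4 h libraries. On the log2 scale the difference was 0.17 ± 0.12 (SE) at 8 h against untreated (95% interval −0.09 to 0.44, adjusted p = 0.932), 0.024 at 4 h against untreated (−0.24 to 0.29) and 0.15 at 8 h against 4 h (−0.12 to 0.41). At 8 h against untreated it ranged from 0.042 to 0.31 relative to the median of all genes when each library was left out.

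Between the treated groups, 8 h against 4 h, the remaining members differed by log2 values of −0.13 for Klf2, −0.18 for Klf3, 0.27 for Klf4, 0.083 for Klf6, −0.0086 for Klf7, 0.066 for Klf9, 0.21 for Klf10 and 0.078 for Klf11. The narrowest 95% interval was that of Klf9 (−0.10 to 0.23) and the widest that of Klf11 (−1.91 to 2.07).

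**Figure D2:**
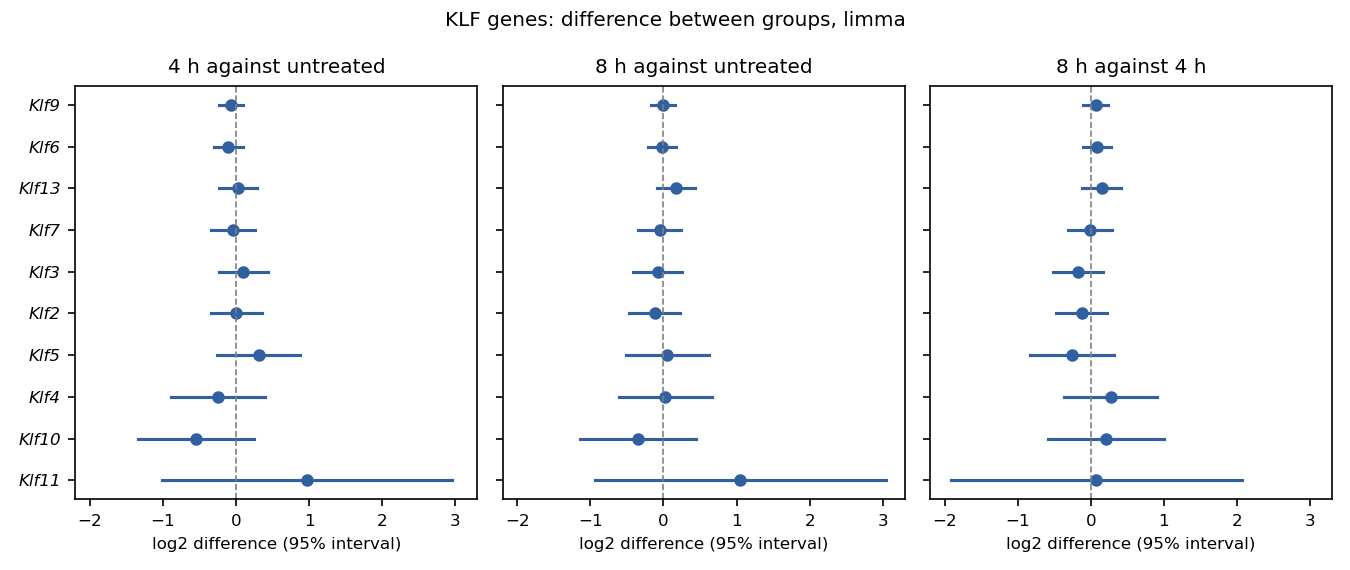
Log2 difference (x axis) of the 10 KLF genes in the 3 comparisons, genes ordered by mean normalised value from top to bottom. Points are limma estimates and lines 95% intervals. All 30 intervals include 0, and they widen as the level drops, from Klf9 to Klf11.

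Counted by libraries alone, 2 of 10 members did not overlap between groups at 4 h against untreated (Klf6 and Klf9, both lower), where 32.1% of all tested genes did not overlap. At 8 h against untreated the count was 0 of 10, where 33.7% of all genes did not overlap. At 8 h against 4 h it was 3 of 10 (Klf5 lower, Klf9 and Klf13 higher), where the share of all genes was 33.3%. None of these counts exceeds the share over all genes. The comparisons at 4 h and 8 h share the untreated libraries, so they are not independent of each other. The median log2 difference of the 10 members was −0.021 at 4 h and −0.015 at 8 h, beside −0.0008 and 0.0049 over all genes tested, and the median size without sign was 0.10 and 0.067, beside 0.29 and 0.29. Spread fell with level, and 9 of the 10 members had a mean above that of 60.9% or more of the genes tested, while Klf11 was above 30% of them.

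**Figure D3:**
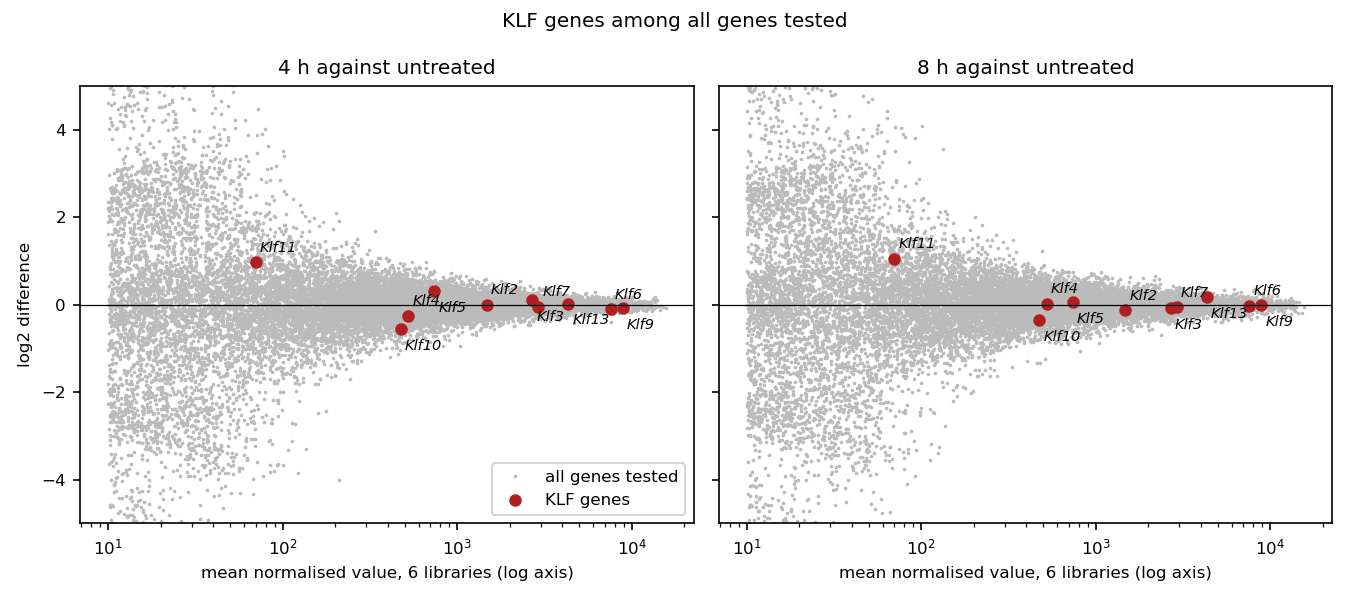
Log2 difference (y axis) against the mean normalised value over 6 libraries (x axis, log) for all 15155 genes tested in grey and the 10 KLF genes in red, at 4 h and at 8 h against untreated. Genes with larger differences fall outside the plotted range. The KLF genes lie inside the cloud of genes of like level in both panels.

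These bounds rest on the spread between the libraries of a group, which limma draws toward a trend with level over all genes (10.9 degrees of freedom). An interval is therefore not set by the member's own spread alone. Klf3 had a larger SD than Klf2 (0.19 against 0.11) but a slightly smaller SE (0.153 against 0.159). The median within-group SD of log2 values was 1.72 for the 5263 tested genes with a mean from 10 to below 100, 0.34 for the 6303 from 100 to below 1000 and 0.14 for the 3490 from 1000 to below 10000. Klf9 had the smallest SD of the members (0.043) and Klf11 the largest (0.89). Set beside genes whose mean was within 1.2-fold of their own, Klf9 and Klf2 were among the more even, with 16.2% and 19.2% of such genes having a lower SD. Klf10 and Klf3 were among the less even, with 87.8% and 83.7%.

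**Figure D4:**
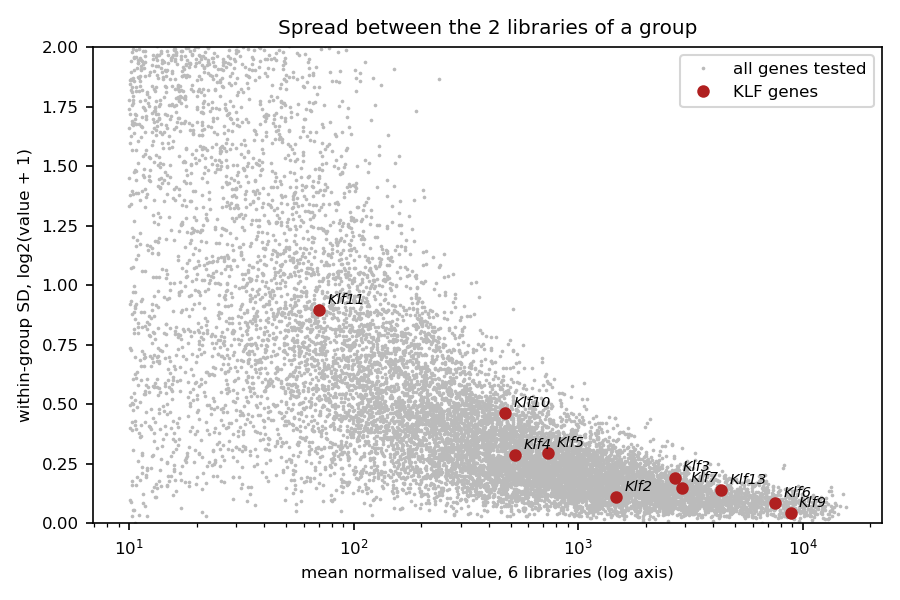
Within-group SD of log2(value + 1), pooled over the 3 groups (y axis, shown up to 2), against the mean normalised value (x axis, log) for all genes tested in grey and the 10 KLF genes in red. The SD is largest for Klf11 (0.89) at the left and smallest for Klf9 (0.043) at the right. The fall between them is not steady, with 0.11 for Klf2 and 0.19 for the more abundant Klf3.

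Levels that all genes share were divided out above. The methods of the study state a scaling of counts by spike-in RNA, and the labels tie the amount of spike-in to cell number. In the recovered numbers before the scaling applied here, the group mean of every member was higher in treated cells. The ratio of group means ran from 1.15 to 2.98 over the members at 4 h against untreated and from 1.87 to 4.80 at 8 h against untreated, beside ratios of the summed numbers of 1.67 and 2.37. Tested without scaling, limma called 8 of 10 members higher at 8 h against untreated (all but Klf10 and Klf11), where 41.4% of all 15371 genes tested were called (6352 higher, which is 41.3%, and 15 lower). It called 0 members and 0% of all genes at 4 h against untreated, and 0 members and 0.00651% of all genes (1 gene) at 8 h against 4 h. The 41.4% also counts low genes, whose spread was wider than that of most members. No share among genes of like level was taken. The median log2 difference over all genes moved to 1.25 at 8 h against untreated, and relative to it the 8 members called lay between −0.12 and 0.17. A difference in RNA per cell cannot be told apart here from one in spike-in recovery, and the part of depth was not tested.

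Among relatives outside the set, Klf8, Klf12, Klf15 and Klf16 were tested, and 0 of 4 passed in any comparison. Klf1, Klf14 and Klf17 were listed at 0. Klf8 had the largest difference of these, with 79.4 and 135 at 4 h against 30.6 and 30.2 in untreated cells, a log2 difference of 1.74 ± 0.80 (SE) and an adjusted p of 0.961 (limma). Its 8 h libraries had 75.9 and 66. The lowest of that list were Klf12 at 4 h against untreated (log2 difference −0.14) and Klf15 at 8 h against untreated (−0.28).

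Of the related SP genes, which bind GC boxes, 0 of 5 tested passed in any comparison. At 8 h against untreated 1 had an unadjusted p below 0.05, where 775 of all 15155 genes did. Their median log2 difference was 0.0050 at 4 h and −0.036 at 8 h against untreated. Sp3 was lowest at both times, with 1025 and 1044 at 4 h and 1043 and 1067 at 8 h against 1158 and 1430 in untreated cells. Its log2 difference was −0.31 ± 0.18 (SE) at 4 h and −0.29 ± 0.18 (SE) at 8 h, with adjusted p of 0.961 and 0.922 (limma). Sp4 was highest at 4 h (0.73 ± 0.37 SE) and Sp5 at 8 h (1.10 ± 0.89 SE).

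Of the 11 cofactors and ubiquitin ligases of KLF proteins, 0 passed in any comparison. At 4 h against untreated 2 had an unadjusted p below 0.05, where 667 of all 15155 genes did. The median log2 difference was 0.055 at 4 h and 0.22 at 8 h against untreated. Hdac1, a deacetylase of the Sin3 complex, was highest at both times (0.75 ± 0.50 and 0.37 ± 0.50 SE), and Sin3a, its scaffold, was lowest at both (−0.57 ± 0.35 and −0.40 ± 0.35 SE).

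Of the 14 regulators upstream of KLF genes, 0 passed, with 1 unadjusted p below 0.05 in each comparison. Over all 15155 genes the counts were 667 at 4 h against untreated, 775 at 8 h against untreated and 675 at 8 h against 4 h. The median log2 difference of the regulators was −0.16 at 4 h and −0.17 at 8 h against untreated. Mapk7, the kinase that relays flow to Klf2, was lowest at both times, with 132 and 46.8 at 4 h and 12.8 and 122 at 8 h against 140 and 142 in untreated cells. The 2 libraries of each treated group disagreed widely, and the adjusted p was 0.961 and 0.915 (limma). Smad3 was highest at both times (0.19 ± 0.25 and 0.32 ± 0.25 SE).

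Of the 14 textbook targets of KLF proteins, 0 passed in any comparison and none had an unadjusted p below 0.05. The median log2 difference was −0.078 at 4 h and −0.0057 at 8 h against untreated. Cdkn1a, a cell cycle inhibitor and a target of Klf4 and Klf6, had 5037 and 4669 at 4 h and 4870 and 4745 at 8 h against 4987 and 4585 in untreated cells. Thbd, the thrombomodulin gene and a target of Klf2, had 13630 and 12763 at 4 h and 12415 and 13609 at 8 h against 12369 and 15620 in untreated cells. Plau was highest at 4 h (0.35 ± 0.37 SE) and Tgfb1 lowest (−0.38 ± 0.71 SE), while Tgfb1 was highest at 8 h (0.50 ± 0.71 SE) and Tgfbr1 lowest (−0.29 ± 0.27 SE).

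At 8 h against 4 h the highest and lowest log2 differences of these lists were 0.72 for Klf12 and −0.54 for Klf8 among other KLF genes. For SP genes they were 0.46 for Sp5 and −0.088 for Sp1, and for cofactors 0.34 for Hdac2 and −0.38 for Hdac1. Of the cofactors, 1 had an unadjusted p below 0.05 in this comparison, where 675 of all 15155 genes did. Among regulators they were 0.33 for Map2k5 and −0.95 for Mapk7, and among targets 0.88 for Tgfb1 and −0.56 for Tgfbr1. None of these passed the test.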

How the data were processed

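Newly made RNA of 6 samples, 2 untreated and 2 each after 4 h and 8 h of dTAG, was measured. The authors trimmed reads with Trim Galore, aligned them to mm10 by STAR, counted per gene with featureCounts, applied a scaling from ERCC spike-in RNA and ran DESeq2. Processing notes of the submitters list the tools SAMtools, BWA, deepTools and MACS2 with the mm10 build and no versions. Labels and methods name different library kits and labelling agents. Each deposited table of the authors holds a mean signal per gene over the 4 libraries of a comparison, after division by size factors, and columns of the authors' own comparison (log2 fold change, its error, p and q), which were not used.

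Whole numbers per library whose scaled mean gives the deposited mean signal in both tables were sought by lattice reduction, within a relative 7e-15. Exactly 1 solution existed for 23612 of the 23783 genes with a nonzero mean, all 10 members included, and several for 171 genes, all with a mean from 5000 up, which were left out. The pair of libraries common to both tables is the untreated group, and the other pairs follow the tables' times. With the deposited means shifted by up to 3e-12 or 3e-10 of their value, 0 of 10 members had a solution in either case, and 2 and 4 of 2000 other genes did. In 4 libraries the numbers up to 4000 were rounded multiples of 1.05, 1.56, 1.15 and 1.46, which is how scaling before rounding looks, in 100% of values to 4 digits, and such multiples fill 64.2% to 94.9% of whole numbers. They are therefore not read counts, no count model was used, and depth in reads was not derived. Division by these factors would estimate it for 4 libraries, and the other 2 gave no factor.

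Numbers were divided by median-of-ratios factors over the 6 libraries. limma 3.58.1 in R 4.3.3 (eBayes with trend, 1 model over 3 groups) was run on log2(value + 1) for genes whose mean reached 10, at an adjusted p threshold of 0.05. The scale with a pseudocount understates changes of low genes. Precision is given as limma's SE and 95% interval. Alternatives were the pseudocount, the filter, the scaling, voom weights, robust eBayes, only the 4 libraries compared, a looser threshold and each library left out. The script was tested on simulated data. Figures and sequence searches used Python 3.11.15. All 10 members were to be named, and of the other lists the highest and lowest gene in each comparison. Markers came from a listed set, and Cdkn1a and Thbd were named after their values were seen. Members and lists were chosen with earlier results of these data known.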

Additional observations from a re-analysis of the deposited data

How the results depend on the processing

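The groups have 2 libraries, too few for a test of single outlying values. No paired analysis was possible because the recovered libraries carry no replicate number. The counts of called genes and called members were 0 in every comparison under a pseudocount of 0.5 or 5, no filter or a mean of at least 100, scaling to the sum of values, voom weights, robust eBayes, only the 4 libraries compared, an adjusted p threshold of 0.1 and each library left out, where the lone library of a group is assumed to vary like the others. The exception was no scaling, where 6367 genes and 8 members were called at 8 h against untreated, 1 gene was called at 8 h against 4 h, and the median of all genes moved to 0.73 at 4 h and 1.25 at 8 h against untreated on the log2 scale. By construction this setting keeps differences in the sums of the libraries. Relative to the median of all genes, the sign of a member's difference changed in 9 of 40 values at 4 h against untreated when a library of the comparison was left out (Klf2, Klf3, Klf4, Klf5, Klf7, Klf11 and Klf13), in 9 of 40 at 8 h against untreated (Klf3, Klf4, Klf5, Klf6, Klf7 and Klf9) and in 8 of 40 at 8 h against 4 h (Klf3, Klf6, Klf7, Klf10 and Klf11), and the largest moves were 1.04, 1.04 and 0.51. Under the other settings each comparison had 119 values. The sign changed once, for Klf9 at 8 h against untreated, and the largest move was 0.26. Robust eBayes and the looser threshold leave the estimate as it is, and the filter and scaling hardly move it relative to the median. That count therefore says little about stability. Apart from no scaling, the lowest adjusted p of a member was 0.716. The order of the 10 members in untreated cells per kilobase was the same with sum scaling. The 2 libraries per group limit every interval given, and Klf11, with a recovered number of 14 in 1 library, is the least well measured member.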
